A study of Mus musculus with 18 samples.

Results

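The genes described here belong to antigen presentation by major histocompatibility complex (MHC) class II: H2-Aa, H2-Ab1, H2-Eb1, Cd74, H2-DMa and Ciita. They are 6 of the 18193 genes that had a probe set of their own on the arrays, and every probe set whose annotated symbol was one of them was taken, 14 in all. Expression was measured on 18 oligonucleotide arrays, 1 per sample, in a mouse study of hepatocellular carcinoma (HCC) that set tumours of mice with a defective Tlr4, the receptor for bacterial lipopolysaccharide, and tumours of mice given antibiotics beside ordinary tumours and normal liver. All mice were male and were kept free of specific pathogens. Tlr4-mutant tumours (5 arrays, numbered 23 to 27 in the labels) came from C3H/HeJ mice carrying the Tlr4P712H allele. Antibiotic tumours (3 arrays, 28 to 30) came from wild-type (WT) C3H/HeOuJ mice that drank 1 g/l each of metronidazole, neomycin and ampicillin with 500 mg/l vancomycin between weeks 10 and 54. WT tumours (7 arrays, 16 to 22) came from C3H/HeOuJ mice without antibiotics. Mice of these 3 groups were injected with the liver carcinogen diethylnitrosamine (DEN, 100 mg/kg) in week 12 and then 6 times, in weeks 13 to 23, with the hepatotoxin carbon tetrachloride (CCl4, 0.5 ml/kg), and HCC lesions were cut out at 54 weeks of age. Normal liver (3 arrays, 1 to 3) came from WT C3H/HeOuJ mice aged 15 weeks. The Tlr4 allele and the substrain cannot be told apart in the mutant group. In the comparisons with normal liver, tumour, age and the DEN and CCl4 injections cannot be told apart, since the labels give these injections for the tumour groups only. The labels do not state whether each array of a group stands for its own animal. The p-values below therefore rest on the spread among samples, and that spread may be technical.

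MHC class II molecules are pairs of an alpha and a beta chain that carry peptides from engulfed material to the cell surface, where helper T cells read them. In mouse they come as I-A, made of H2-Aa and H2-Ab1, and I-E, made of H2-Ea and H2-Eb1. Cd74, the invariant chain, holds new pairs until they reach endosomes, H2-DMa is a subunit of the DM molecule that exchanges the last Cd74 fragment for a peptide, and Ciita is the coactivator that turns on the class II genes. In liver these genes are known mainly from Kupffer cells, dendritic cells and B cells, and interferon gamma can induce them in other cells.

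Ciita acts on short promoter elements, an X box and a Y box, that are bound by the Rfx5 complex, Creb1 and the NF-Y complex. RefSeq promoter windows on mouse build GRCm38.p6 each reached from 250 bases before to 50 bases after a start. Windows of 3 members were searched (H2-Aa, H2-Eb1 and, with separate starts, H2-DMa), 4 windows in all. H2-Ab1, Cd74 and Ciita were not searched. The letters searched on both strands were CTGATTGG for the Y box core, TGACGTCA for the X2 element of the X box and AGCAAC for the X1 core, none of which overlapped another in the stretches shown. H2-Aa and H2-Eb1 are shown because each held the Y box core and both are chain genes that rose in tumours. The sequences are the 120 bases before the start, 5′ to 3′ on the gene's strand, and capitals mark the matches.
H2-Aa, chr17:34287824-34287943, minus strand: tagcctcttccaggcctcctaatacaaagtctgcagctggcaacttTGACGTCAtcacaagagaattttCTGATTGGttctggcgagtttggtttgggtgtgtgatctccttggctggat
H2-Eb1, chr17:34305747-34305866, plus strand: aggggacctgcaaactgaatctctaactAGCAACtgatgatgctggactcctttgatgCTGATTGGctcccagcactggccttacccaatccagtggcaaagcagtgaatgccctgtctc
In H2-Aa the Y box core began 51 bases before the start and the X2 letters 74 bases before it. In H2-Eb1 the Y box core began 62 bases before the start and the X1 letters 92 bases before it. Of 32851 promoter windows of the same length in the table, 4.10% held the Y box letters on either strand, 1.79% the X2 letters and 14.8% the X1 letters. Among 15 further class II pathway genes with a window, 2 held the Y box core, H2-Oa and H2-Eb2. A match describes these letters only.

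The deposited values are log2 signals, and log2 4 was taken as the limit below which a probe set was read as dim. A gene was tested when a probe set of its own exceeded log2 4 on at least 3 arrays, and it was represented by its brightest such probe set. Of the 6 class II genes 4 passed, H2-Aa, H2-Ab1, H2-Eb1 and Cd74, with 8 of the 14 probe sets. H2-Aa, H2-Ab1 and Cd74 lay above the limit on all 18 arrays, so they passed through normal liver alone, whereas H2-Eb1 was above it on 1 of 3 normal livers and passed through the tumours. Genes named below as dim in normal liver passed through tumours alone, among them H2-Ea, Ifngr2, Coro1a, Cd52, Cd68 and Cd40. Their being called higher than normal liver, and list counts that include them, depend in part on that filter. Changes were tested with limma over 9053 genes, and a gene was called at an adjusted p (Benjamini-Hochberg) under 0.05.

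**Figure D1:**
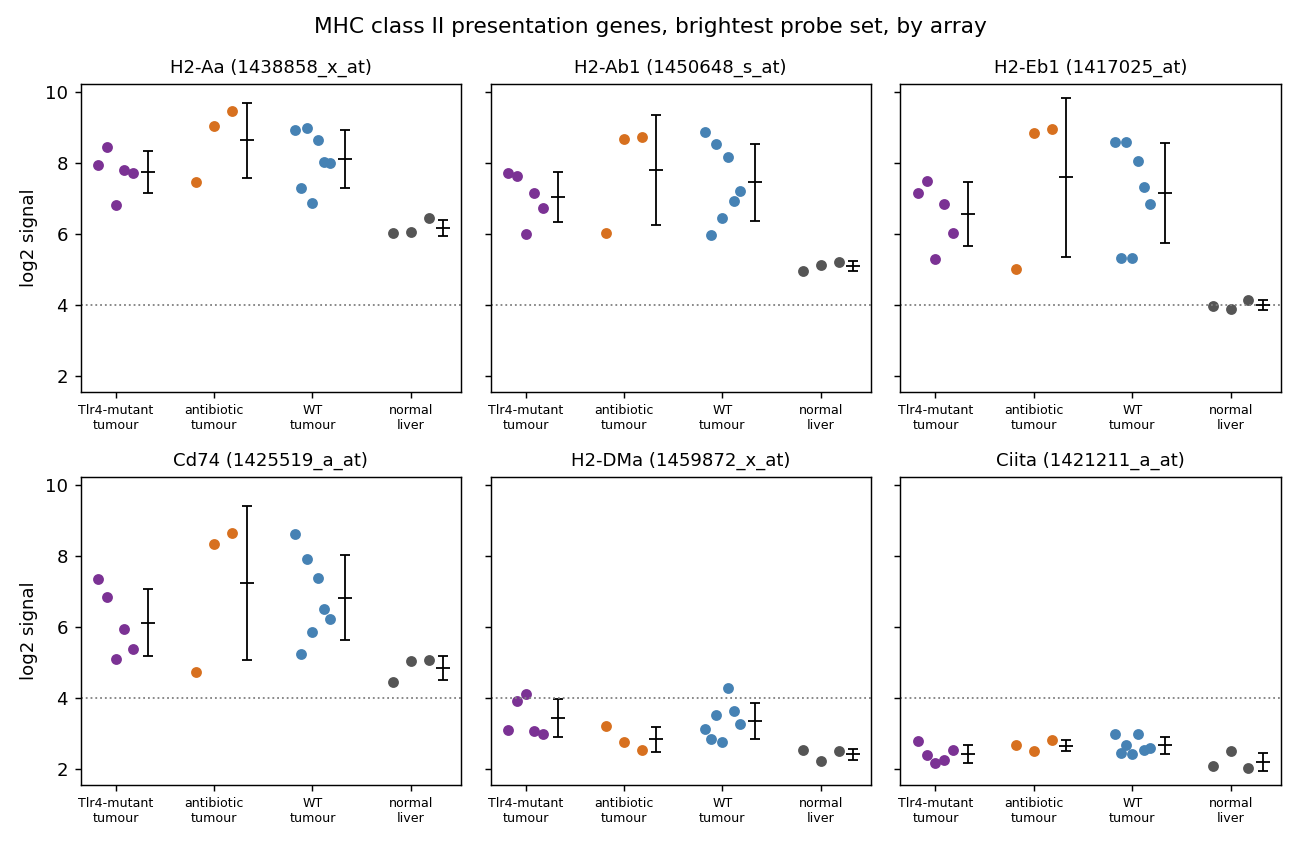
Log2 signal of the brightest probe set of each of the 6 class II genes, 1 point per array, with Tlr4-mutant, antibiotic and WT tumours left of normal liver; bars are the mean and SD of each group, and the dotted line marks log2 4. The chain genes and Cd74 were higher in nearly all tumours than in normal liver and varied widely among tumours, while H2-DMa and Ciita lay near or below the dotted line.

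In WT tumours the 3 chain genes H2-Aa, H2-Ab1 and H2-Eb1 rose over normal liver by 1.93 to 3.16 on the log2 scale. H2-Aa, the I-A alpha chain, had a lowest, median and highest log2 signal of 6.88, 8.02 and 9.00 in the 7 WT tumours, against 6.03, 6.07 and 6.44 in normal liver. Every WT tumour lay above every normal liver. The difference was 1.93 ± 0.48 (SE; 95% confidence interval 0.92 to 2.95, adjusted p = 0.0054, limma).

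H2-Ab1, the I-A beta chain, had a lowest, median and highest log2 signal of 5.98, 7.22 and 8.89 in WT tumours, against 4.95, 5.14 and 5.22 in normal liver. Here too the groups were apart, although WT tumours 17 and 19 exceeded normal liver by far less than tumours 16, 18 and 20 did. The log2 difference was 2.35 ± 0.65 (SE; 95% confidence interval 0.99 to 3.72, adjusted p = 0.00975, limma).

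H2-Eb1, the I-E beta chain, differed most. Its lowest, median and highest log2 signals were 5.32, 7.33 and 8.61 in WT tumours, against 3.98, 3.89 and 4.15 on the 3 normal livers. The groups were apart, with WT tumours 17 (5.32) and 19 (5.34) well below the other 5. The log2 difference was 3.16 ± 0.86 (SE; 95% confidence interval 1.33 to 4.98, adjusted p = 0.00942, limma).

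Cd74, the invariant chain, had a lowest, median and highest log2 signal of 5.25, 6.52 and 8.62 in WT tumours, against 4.48, 5.05 and 5.07 in normal liver. The groups did not overlap, but the lowest WT tumour lay only just above the highest normal liver. Its log2 difference of 1.97 ± 0.81 (SE; 95% confidence interval 0.26 to 3.67) was not called (adjusted p = 0.0625, limma). It was called without WT tumour 17 (2.23, adjusted p = 0.0369, limma), with array weights (adjusted p = 0.00571, limma) and in a fit of only the 2 groups (adjusted p = 0.0362, limma).

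Of the 4 tested members 3 were thus called higher, where 18.8% of all tested genes were (20.2% were called lower), and all 4 were apart from normal liver, as were 18.4% of genes. Since 39.0% of all genes were called in one direction or the other, a call in this comparison is common. The median log2 difference over all tested genes was -0.0078. RNA quality controls differed between the same groups: the 3′ probe set of Gapdh exceeded its 5′ probe set by 0.42 ± 0.15 log2 units in WT tumours (SD, n = 7) and by 1.52 ± 0.13 in normal liver (SD, n = 3), and that of beta-actin by 2.14 ± 0.17 in WT tumours and 3.90 ± 0.31 in normal liver. RNA quality and tumour cannot be told apart here. In bulk tissue, more cells of a type and more RNA per cell cannot be told apart either.

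The other probe sets of the chain genes gave different sizes. H2-Aa had a second probe set, 1435290_x_at, with lowest, median and highest log2 signals of 5.95, 7.24 and 8.74 in WT tumours, against 3.51, 4.59 and 4.98 in normal liver, a difference of 3.01 ± 0.65 (SE; adjusted p = 0.00214, limma over all probe sets). Another, 1452431_s_at, spanned 4.82 to 9.08 in WT tumours and was dim on all 3 normal livers, so that WT tumours were at least 9.42-fold higher (adjusted p = 0.00427, limma over all probe sets). The last, 1443783_x_at, stayed between 1.40 and 2.87 on every array. For H2-Ab1 the dimmer probe sets 1451721_a_at and 1425477_x_at overlapped between WT tumours and normal liver and were not called (1.53 ± 0.67, adjusted p = 0.0791, and 0.70 ± 0.51, adjusted p = 0.291; SE, limma over all probe sets). Probe sets whose names end in _x_at or _s_at can bind related transcripts, and every H2-Aa probe set is of that kind. So is 1450648_s_at, the probe set that represents H2-Ab1. Without such probe sets H2-Ab1 was represented by 1451721_a_at and was not called (1.53, adjusted p = 0.0814, limma). H2-Eb1 rests on 1417025_at, which is not of that kind.

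**Figure D2:**
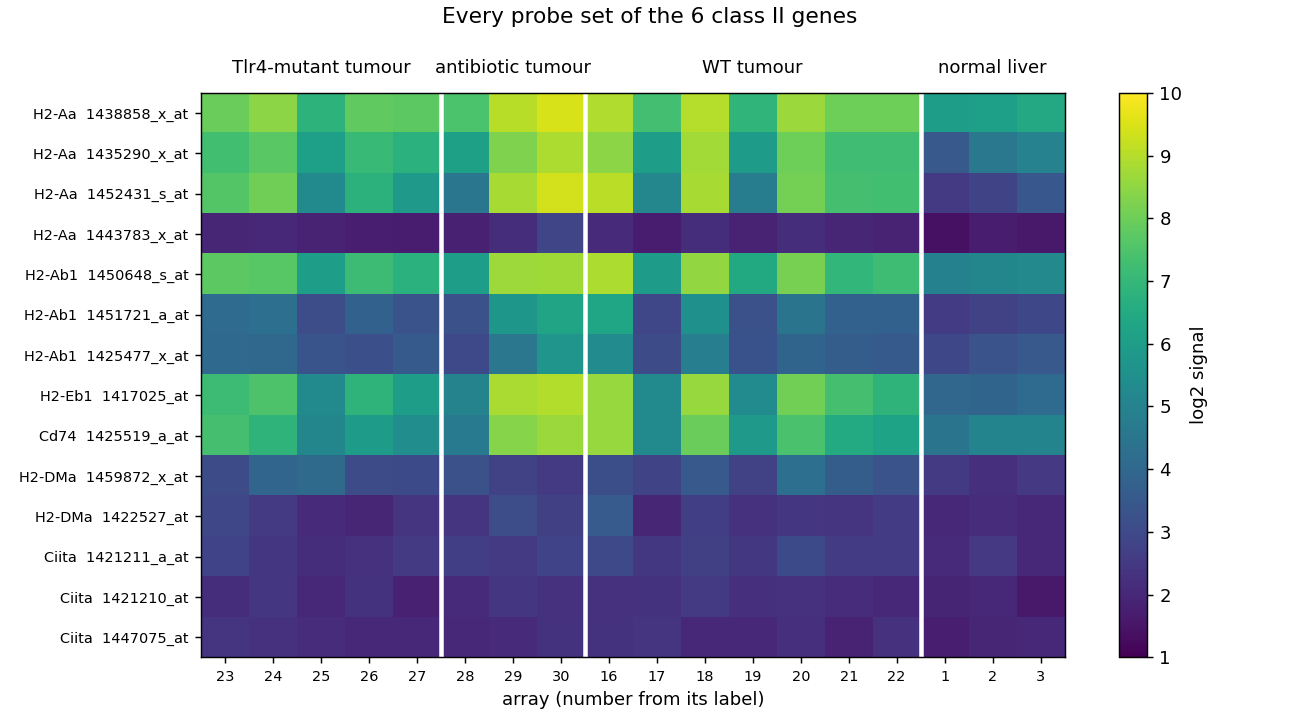
Log2 signal (colour scale) of each of the 14 probe sets of the 6 class II genes (down the page) on every array (across, numbered as in the labels), with Tlr4-mutant, antibiotic and WT tumours left of normal liver. The same tumours were low relative to other tumours across the chain genes and Cd74, among them Tlr4-mutant 25, antibiotic 28, WT 17 and WT 19. The 3 Ciita probe sets were below log2 4 on every array.

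H2-DMa and Ciita did not pass the filter. H2-DMa exceeded log2 4 on only 2 arrays, Tlr4-mutant tumour 25 (4.12) and WT tumour 20 (4.29). Its brighter probe set, 1459872_x_at, averaged 3.45 ± 0.53 in Tlr4-mutant tumours (SD, n = 5), 2.85 ± 0.35 in antibiotic tumours (SD, n = 3), 3.36 ± 0.52 in WT tumours (SD, n = 7) and 2.43 ± 0.16 in normal liver (SD, n = 3). The other, 1422527_at, ranged between 1.97 and 3.58 over all arrays. The 2 probe sets were highest in different tumours, 1459872_x_at in WT tumour 20 and 1422527_at in WT tumour 16, and nearly all of these values lie in the range read as dim.

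Ciita, measured by 3 probe sets, ranged between 1.62 and 3.01 over all groups and arrays, so the coactivator had no signal above the limit. Its brightest probe set, 1421211_a_at, averaged 2.44 ± 0.24 in Tlr4-mutant tumours (SD, n = 5), 2.67 ± 0.15 in antibiotic tumours (SD, n = 3), 2.68 ± 0.23 in WT tumours (SD, n = 7) and 2.22 ± 0.25 in normal liver (SD, n = 3). With no filter on low values (18193 genes tested), both genes were called higher in WT tumours than in normal liver, H2-DMa by 0.93 ± 0.30 (SE, adjusted p = 0.0368, limma) and Ciita by 0.46 ± 0.16 (SE, adjusted p = 0.0424, limma). Both differences lie in the range read as dim.

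Tlr4-mutant tumours were set against WT tumours, a comparison in which the Tlr4 allele and the substrain cannot be told apart. Group means of the 4 tested members were lower in the mutant tumours by 0.37 to 0.70 on the log2 scale, none was called, and the groups overlapped for each, as they did for all but 1.61% of tested genes. H2-Aa had 7.95, 8.45, 6.83, 7.80 and 7.73 in Tlr4-mutant tumours 23 to 27, all within the range of 6.88 to 9.00 in WT tumours except tumour 25. The log2 difference was -0.37 ± 0.41 (SE; 95% confidence interval -1.22 to 0.49, adjusted p = 0.665, limma).

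H2-Ab1 had 7.73, 7.65, 6.02, 7.16 and 6.73 in Tlr4-mutant tumours 23 to 27, against 5.98 to 8.89 in WT tumours. H2-Eb1 had 7.17, 7.50, 5.30, 6.84 and 6.03 in the mutant tumours, against 5.32 to 8.61 in WT tumours. Tumour 25 was the lowest mutant tumour for both, and no mutant tumour reached the level of WT tumours 16, 18 and 20. The log2 differences were -0.40 (95% confidence interval -1.56 to 0.76, adjusted p = 0.734, limma) for H2-Ab1 and -0.59 (95% confidence interval -2.14 to 0.95, adjusted p = 0.701, limma) for H2-Eb1.

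Cd74 had 7.35, 6.85, 5.12, 5.96 and 5.40 in Tlr4-mutant tumours, against 5.25 to 8.62 in WT tumours. The log2 difference was -0.70 ± 0.68 (SE; 95% confidence interval -2.14 to 0.75, adjusted p = 0.622, limma). Leaving out 1 array kept all 4 differences negative but moved them by over 1.5 times. Without Tlr4-mutant tumour 25 they were -0.13 for H2-Aa, -0.14 for H2-Ab1, -0.28 for H2-Eb1 and -0.44 for Cd74, and without WT tumour 16 they were -0.23, -0.16, -0.36 and -0.40 in the same order. Without WT tumour 18 the first 3 were -0.22, -0.22 and -0.35. They were larger without WT tumour 17 (H2-Ab1 -0.64 and H2-Eb1 -0.90) or WT tumour 19 (H2-Aa -0.57 and H2-Eb1 -0.90). The confidence intervals span both a fall and a rise, and for H2-Eb1 and Cd74 the fall could exceed 2 log2 units. Of all tested genes 0.265% were called in this comparison, and 16.7% had an unadjusted p under 0.05 (limma), which 0 of the 4 members had.

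Antibiotic tumours were set against WT tumours to ask about the intestinal microbiota. Means of the 4 tested members were higher in antibiotic tumours by 0.36 to 0.53 on the log2 scale, none was called, and the 3 antibiotic tumours split widely. The groups overlapped for each gene, and 4.04% of all tested genes did not overlap. H2-Aa had 7.46, 9.03 and 9.46 in antibiotic tumours 28, 29 and 30, against 6.88 to 9.00 in WT tumours (difference 0.53, 95% confidence interval -0.48 to 1.54, adjusted p = 0.598, limma). H2-Ab1 had 6.02, 8.69 and 8.73, against 5.98 to 8.89 in WT tumours (difference 0.36, 95% confidence interval -1.01 to 1.72, adjusted p = 0.814, limma).

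The split was as wide for the I-E chain and the invariant chain. H2-Eb1 had 5.01, 8.84 and 8.95 in antibiotic tumours 28, 29 and 30, against 5.32 to 8.61 in WT tumours (difference 0.44, 95% confidence interval -1.38 to 2.26, adjusted p = 0.828, limma). Cd74 had 4.74, 8.36 and 8.66, against 5.25 to 8.62 in WT tumours (difference 0.42, 95% confidence interval -1.29 to 2.12, adjusted p = 0.825, limma). For both genes antibiotic tumour 28 lay below every WT tumour and antibiotic tumour 30 above every WT tumour. Without antibiotic tumour 29 or 30 the differences of H2-Ab1, H2-Eb1 and Cd74 turned negative, between -0.081 and -0.29, and that of H2-Aa was 0.34 or 0.13. Without antibiotic tumour 28 the 4 differences were 1.13 to 1.74. Leaving out WT tumour 16, 17, 18 or 19 also moved at least 1 of them by over 1.5 times, H2-Eb1 to 0.68, 0.13, 0.68 and 0.14 in that order. Of all tested genes 0.0884% were called and 15.5% had an unadjusted p under 0.05 (limma), again 0 of the 4 members.

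Set directly against antibiotic tumours, Tlr4-mutant tumours had lower means of all 4 members, with no call and with overlapping groups, where 5.71% of tested genes were apart. The log2 differences were -0.90 for H2-Aa (95% confidence interval -1.97 to 0.17, adjusted p = 0.567, limma), -0.76 for H2-Ab1 (adjusted p = 0.729, limma), -1.03 for H2-Eb1 (adjusted p = 0.720, limma) and -1.12 for Cd74 (adjusted p = 0.681, limma). Leaving out 1 array moved these values: the differences of H2-Aa, H2-Ab1, H2-Eb1 and Cd74, in that order, were -1.49, -1.65, -2.33 and -2.37 without antibiotic tumour 28, and -0.49, -0.30, -0.36 and -0.41 without antibiotic tumour 30. Without antibiotic tumour 29 those of H2-Ab1, H2-Eb1 and Cd74 were -0.32, -0.41 and -0.56, and without Tlr4-mutant tumour 25 that of H2-Ab1 was -0.50. Here 0.232% of genes were called and 10.3% had an unadjusted p under 0.05 (limma), with 0 members among them.

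Both other kinds of tumour were also set against normal liver, and these comparisons share the same 3 normal livers with that of WT tumours. In Tlr4-mutant tumours 1 of the 4 tested members was called higher, H2-Aa (1.57 ± 0.51, SE, adjusted p = 0.0359, limma), where 11.7% of genes were, 22.3% counting both directions. H2-Ab1 (1.95 ± 0.68, adjusted p = 0.0502, limma) and H2-Eb1 (2.56 ± 0.91, adjusted p = 0.0534, limma) missed the threshold, and Cd74 differed by 1.27 ± 0.85 (SE, adjusted p = 0.288, limma). Every mutant tumour lay above every normal liver for all 4 genes, as for 20.2% of all genes. The call of H2-Aa was lost without Tlr4-mutant tumour 23, 24 or 26 or any 1 normal liver (adjusted p between 0.0553 and 0.113, limma), and H2-Ab1 and H2-Eb1 were called without mutant tumour 25 (adjusted p = 0.0430 and 0.0490, limma).

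In antibiotic tumours 3 members were called higher than in normal liver, where 8.11% of genes were (6.91% lower, 15.0% in all). The log2 differences were 2.47 ± 0.57 for H2-Aa (SE, adjusted p = 0.00966, limma), 2.71 ± 0.76 for H2-Ab1 (SE, adjusted p = 0.0271, limma) and 3.59 ± 1.02 for H2-Eb1 (SE, adjusted p = 0.0276, limma). Cd74, at 2.39 ± 0.95 (SE, adjusted p = 0.0973, limma), was not called. The groups were apart for the 3 chain genes, as for 19.8% of all genes, and overlapped for Cd74, because antibiotic tumour 28 (4.74) was below 2 of the normal livers. The calls of H2-Ab1 and H2-Eb1 were lost without antibiotic tumour 29 or 30 or any 1 normal liver (adjusted p between 0.0663 and 0.122, limma), and Cd74 was called without tumour 28 (3.64, adjusted p = 0.00885, limma).

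The 3′ minus 5′ difference of Gapdh was 0.66 ± 0.24 in Tlr4-mutant tumours (SD, n = 5) and 0.40 ± 0.13 in antibiotic tumours (SD, n = 3), also below that of normal liver. By mean level the 4 groups stood in 1 order for each of the 4 genes: antibiotic tumours highest, then WT tumours, Tlr4-mutant tumours and normal liver. Neighbouring tumour groups in that order did not differ beyond their spread. The step between Tlr4-mutant tumours and normal liver passed the threshold for H2-Aa only.

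**Figure D3:**
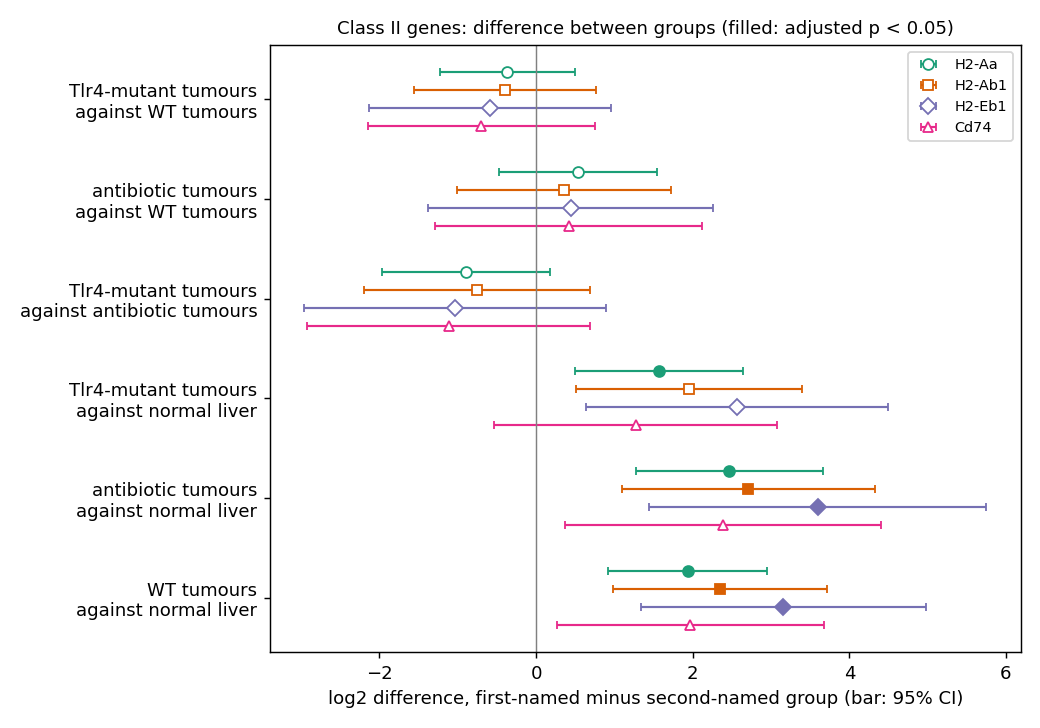
Log2 difference between the first-named and the second-named group (horizontal axis) for H2-Aa, H2-Ab1, H2-Eb1 and Cd74 in 6 comparisons; bars are 95% confidence intervals and filled symbols mark an adjusted p under 0.05. All intervals between tumour groups cross 0, and the filled symbols are confined to the comparisons with normal liver, which share the same 3 arrays.

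The class II genes varied among tumours more than most genes. The residual SD within groups was 0.738 for H2-Aa, 1.00 for H2-Ab1, 1.34 for H2-Eb1 and 1.25 for Cd74 on the log2 scale. The residual SD was smaller than that of H2-Aa in 88.0% of tested genes, than that of H2-Ab1 in 93.5%, than that of H2-Eb1 in 97.1% and than that of Cd74 in 96.4%. Over the 15 tumours H2-Eb1 spanned 3.94 and Cd74 3.92 log2 units, against 2.63 for H2-Aa and 2.91 for H2-Ab1.

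The same tumours were low or high for all 4 genes. Ordered by the mean of the 4 centred values, the low end held antibiotic 28, Tlr4-mutant 25, WT 17 and WT 19, and the high end WT 18, antibiotic 29, WT 16 and antibiotic 30. The low end held arrays of all 3 tumour groups and the high end antibiotic and WT tumours only.

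Pairs of members were compared across the 15 tumours, within 18 relations computed in all. The 6 pairs gave Pearson's r of 0.905 to 0.975 and Spearman's rho of 0.925 to 0.975, each with a permutation p of 1e-05, the smallest that 100000 permutations can give (adjusted p = 2.25e-05 for r). Without the 2 tumours farthest from the median, r was 0.875 to 0.970. Within the 7 WT tumours it was 0.910 to 0.984, and after centring each group on its mean 0.901 to 0.975. H2-Ea, the alpha partner of H2-Eb1, is the gene most like the members and is described with the likeness measure further on.

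Relations with 3 marker genes were also computed. Ptprc (CD45, a phosphatase of all leukocytes) gave r of 0.730 to 0.864 and rho of 0.836 to 0.879 with the 4 members (permutation p up to 0.00167, adjusted p up to 0.002), and r of 0.781 to 0.879 without the 2 tumours farthest from the median. Adgre1 (F4/80, a macrophage surface protein) gave r of 0.715 to 0.804 (permutation p up to 0.00289), and 0.640 to 0.715 without those 2. Irf1, an interferon-induced transcription factor, gave r of 0.656 to 0.770 (adjusted p up to 0.00835, permutation), and 0.701 to 0.889 without those 2. Within WT tumours these relations ran between 0.680 and 0.852, over 7 arrays.

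**Figure D4:**
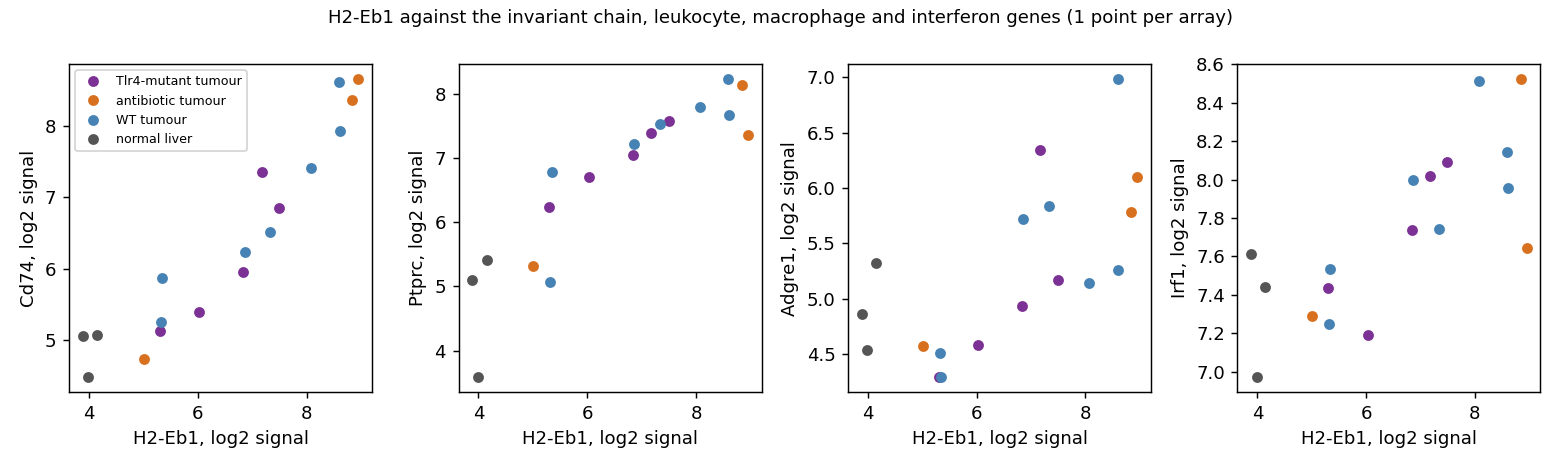
Log2 signal of Cd74, Ptprc, Adgre1 and Irf1 (vertical axes) against that of H2-Eb1 (horizontal axes), 1 point per array, coloured by group. Cd74 followed H2-Eb1 most closely over the 15 tumours, Tlr4-mutant 25, antibiotic 28 and WT 17 and 19 had the lowest H2-Eb1, and antibiotic 29 and 30 and WT 16, 18 and 20 had the highest.

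Likeness to the class II genes was measured as Pearson's r over the 15 tumours with the mean of the 4 tested members, each centred on its own mean, and is given without a test. The 8 most similar genes were H2-Ea (r = 0.986), Adcy7 (an adenylate cyclase, r = 0.944), Cd52 (a leukocyte surface glycoprotein, r = 0.940), Tmsb4x (thymosin beta 4, which binds actin monomers, r = 0.927), Ms4a6c (r = 0.920), Pip4k2a (a phosphoinositide kinase, r = 0.909), Cyba (a subunit of the phagocyte NADPH oxidase, r = 0.901) and Axl (a receptor tyrosine kinase, r = 0.894). H2-Ea spanned 4.68 log2 units over the tumours, more than any member.

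H2-Ea is annotated as a transcribed pseudogene in the C57BL/6J reference genome, whereas the C3H mice used here are known to make an I-E alpha chain. It had 6.14, 6.68, 4.25, 5.59 and 5.02 in Tlr4-mutant tumours 23 to 27, and 3.72, 7.86 and 8.25 in antibiotic tumours 28, 29 and 30. In WT tumours the lowest, median and highest values were 4.30, 6.40 and 8.40, against 2.73, 3.29 and 3.87 in normal liver, all dim. WT tumours were at least 5.65-fold higher than normal liver (adjusted p = 0.0142, limma), a call lost without normal liver 1 (adjusted p = 0.0644, limma). H2-Ea passed the filter through tumours alone. These values and the likeness come from a probe set ending in _s_at, of the kind that can bind related transcripts. Without such probe sets the log2 difference of H2-Ea was 1.42 and not called (adjusted p = 0.0897, limma), against 3.20 with them.

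The lists of related genes differed in likeness. Pan-leukocyte genes (8 tested) had a median r of 0.875, macrophage and Kupffer cell genes (11) 0.642, interferon gamma response genes (13) 0.508, other class II pathway genes (11) 0.439, class I pathway genes (13) 0.334 and hepatocyte genes (6) 0.093. Such values describe a likeness in level across tumours and no more. The hepatocyte genes spanned only 0.23 (Alb) to 0.53 (Hnf4a) log2 units over the tumours, so their r rests on small differences.

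**Figure D5:**
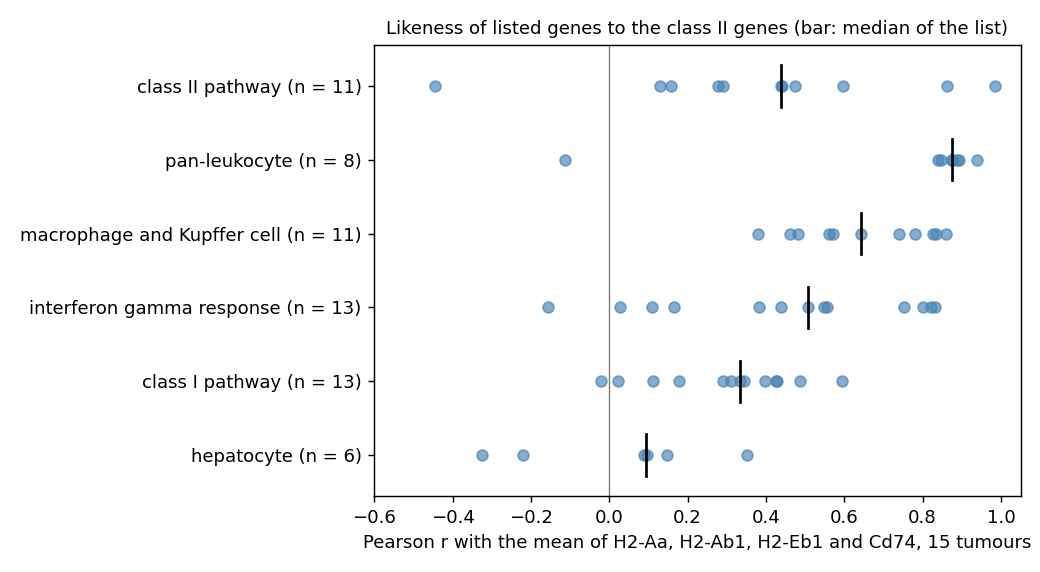
Pearson's r of single genes (points) with the mean of H2-Aa, H2-Ab1, H2-Eb1 and Cd74 over 15 tumours (horizontal axis), by gene list (down the page); the vertical bars are list medians. The pan-leukocyte median was 0.875 and the hepatocyte median 0.093, and class II pathway genes spread between -0.44 and 0.986.

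Other genes of the class II pathway were taken from a list of 17, of which 16 were on the arrays and 11 were tested. In WT tumours against normal liver 3 were called higher, where 18.8% of all tested genes were, and 1 lower, where 20.2% were, and the list's median log2 difference was 0.17, against -0.0078 over all genes. Lgmn, the endosomal protease legumain, differed by 3.34 ± 0.35 (SE, adjusted p = 8.02e-06, limma), and Ctss, cathepsin S, which trims Cd74, by 2.39 ± 0.54 (SE, adjusted p = 0.00335, limma). H2-Ea, described above, was also called. Nfyc, an NF-Y subunit, fell by 0.64 (adjusted p = 0.00409, limma).

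Lgmn stood apart from the chain genes in how little it varied among WT tumours: it was 9.75 ± 0.23 there (SD, n = 7) and 6.41 ± 0.068 in normal liver (SD, n = 3). The lower values of WT tumours 17 and 19 for the chain genes were not seen for Lgmn, which had 10.02 and 9.97 in them. This holds within WT tumours only: over all 15 tumours Lgmn spanned 2.46 log2 units, against 2.63 for H2-Aa, and was lowest in antibiotic tumour 28 (8.17). Rfx5, which binds the X box, differed by -0.29 ± 0.25 (SE, adjusted p = 0.368, limma), and Ifi30, a lysosomal thiol reductase, by 0.17 ± 0.30 (SE, adjusted p = 0.684, limma). H2-DMb1 shares its 2 probe sets with H2-DMb2 and got no value of its own. In Tlr4-mutant tumours against normal liver Lgmn (2.79, adjusted p = 0.000109, limma) was the 1 list member called, as it was in antibiotic tumours (2.79, adjusted p = 0.000507, limma). Of all tested genes 11.7% and 8.11% were called higher in these 2 comparisons.

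Class I genes present peptides made inside the cell. Of 13 tested, 6 were called higher in WT tumours than in normal liver, where 18.8% of all tested genes were. A further 1 was called lower, where 20.2% were, and the list's median log2 difference was 0.47. Psmb8, an immunoproteasome subunit, differed by 1.38 ± 0.29 (SE, adjusted p = 0.00199, limma), Tap2, a peptide transporter subunit, by 1.15 ± 0.27 (SE, adjusted p = 0.004, limma) and H2-K1, a class I heavy chain, by 0.41 ± 0.12 (SE, adjusted p = 0.015, limma). The call of H2-K1 was lost without normal liver 1 or 3 (adjusted p = 0.0619 and 0.0504, limma). B2m, the class I light chain, had 13.55 ± 0.11 in WT tumours (SD, n = 7) and 13.35 ± 0.12 in normal liver (SD, n = 3) and was not called (adjusted p = 0.103, limma), though it was with array weights (adjusted p = 0.00521, limma). Calr, a chaperone, fell by 0.57 (adjusted p = 0.0238, limma), a call lost without any 1 normal liver.

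In Tlr4-mutant tumours 5 class I genes were called higher than in normal liver, where 11.7% of all tested genes were. Among them were H2-K1 (0.58 ± 0.13, SE, adjusted p = 0.00554, limma) and Psmb8 (1.30 ± 0.31, SE, adjusted p = 0.00758, limma). In antibiotic tumours 1 class I gene was called higher, H2-K1 (0.49 ± 0.14, SE, adjusted p = 0.0328, limma), where 8.11% of all tested genes were.

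Among genes of the interferon gamma response, of 13 tested, 6 were called higher and 0 lower in WT tumours than in normal liver. The shares over all tested genes were 18.8% higher and 20.2% lower. The list's median log2 difference was 1.21. The receptor chains had the smallest p-values: Ifngr1 differed by 2.93 ± 0.35 (SE, adjusted p = 2.46e-05, limma), and Ifngr2, dim in normal liver, was at least 4.55-fold higher (adjusted p = 3.86e-05, limma). Ifngr2 passed the filter through tumours alone. Irf1 differed by 0.54 ± 0.29 (SE) and was not called (adjusted p = 0.148, limma), though it was with array weights (adjusted p = 0.0454, limma). Ifng itself lay below log2 2 on every array. Ifngr1 was highest in WT tumours 17 (9.51) and 19 (9.43), which were the lowest WT tumours for the chain genes. In Tlr4-mutant tumours 4 genes were called higher than in normal liver, where 11.7% of all genes were. In antibiotic tumours 3 were, where 8.11% of all genes were. Ifngr1 was among them both times (2.41, adjusted p = 0.000382, and 2.03, adjusted p = 0.00463, limma).

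The pan-leukocyte markers other than Lcp1 moved with the class II genes over the 15 tumours, whereas Lcp1 had r = -0.11 with their mean. Of 8 pan-leukocyte genes, all tested, 7 were called higher and 0 lower in WT tumours than in normal liver. Over all tested genes 18.8% were called higher and 20.2% lower. The list's median log2 difference was 1.79. Lcp1 was not called, with log2 signals of 7.99 to 10.94 in WT tumours against 9.56 to 9.77 in normal liver. Ptprc had a lowest, median and highest log2 signal of 5.06, 7.53 and 8.23 in WT tumours, against 3.58, 5.10 and 5.41 in normal liver, and overlapped because WT tumour 17 was low. Its difference was 2.48 ± 0.64 (SE, adjusted p = 0.00683, limma), a call lost without normal liver 1 (1.93, adjusted p = 0.0564, limma). Coro1a, an actin-binding protein of leukocytes, was dim in normal liver and above log2 4 on 4 of 7 WT tumours. It was at least 1.14-fold higher in WT tumours (adjusted p = 0.00602, limma). Coro1a and Cd52 passed the filter through tumours alone, and the 7 called genes include both.

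Summed over the 8 genes, the pan-leukocyte level was 9.07 to 10.77 on the log2 scale in Tlr4-mutant tumours, 9.40 to 11.13 in antibiotic tumours, 10.03 to 11.29 in WT tumours and 9.95 to 10.15 in normal liver. Lcp1, an actin-bundling protein, made up 73.4% to 85.8% of that sum in normal liver. Without Lcp1, left out after its values were seen, the sum of the other 7 was 8.46 to 10.23 in Tlr4-mutant tumours, 7.97 to 10.73 in antibiotic tumours, 8.68 to 11.00 in WT tumours and 7.13 to 8.09 in normal liver. All 8 were above log2 4 in at least 1 array of each tumour group, and 6 of 8 in normal liver. In Tlr4-mutant tumours 3 of the list were called higher than in normal liver, where 11.7% of genes were. A further 1, Lcp1, was called lower (-1.64, adjusted p = 0.0487, limma), where 10.5% of genes were. In antibiotic tumours 3 were called higher, where 8.11% of genes were, among them Cd52 (at least 3.54-fold, adjusted p = 0.0266, limma). Whether leukocyte content accounts for the class II differences was not tested.

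Macrophage and Kupffer cell genes gave a mixed result. Of 13 listed 11 were tested, and 3 were called higher and 0 lower in WT tumours than in normal liver. Among all tested genes 18.8% were called higher and 20.2% lower. The list's median log2 difference was 0.49. Lyz2, lysozyme, differed by 2.99 ± 0.74 (SE, adjusted p = 0.00535, limma), and Cd68, a lysosomal protein dim in normal liver, was at least 1.30-fold higher (adjusted p = 0.00588, limma). Cd68 passed the filter through tumours alone. Adgre1 was 5.39 ± 0.91 in WT tumours (SD, n = 7) and 4.90 ± 0.39 in normal liver (SD, n = 3), a difference of 0.49 that was not called (adjusted p = 0.476, limma). The summed level of the list was 10.47 to 12.46 in Tlr4-mutant tumours, 9.95 to 12.43 in antibiotic tumours, 10.01 to 12.78 in WT tumours and 9.90 to 11.13 in normal liver. In Tlr4-mutant and antibiotic tumours 0 of the list were called against normal liver by limma, where 22.3% and 15.0% of all genes were. An unadjusted p under 0.05 was found for 1 in Tlr4-mutant tumours, where 37.0% of all genes had one, and for 2 in antibiotic tumours, where 32.0% had.

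Most markers of other antigen-presenting and T cells were dim. An exception was the dendritic cell gene Zbtb46, with 4.03 to 4.84 in Tlr4-mutant, 2.77 to 4.94 in antibiotic and 2.63 to 5.38 in WT tumours. In normal liver it had 4.04 to 4.47. Of 7 B cell genes on the arrays 0 exceeded log2 4 on any array, Cd79a reaching at most 2.36 in Tlr4-mutant tumours, 2.10 in antibiotic tumours, 2.15 in WT tumours and 2.33 in normal liver. Of 7 T cell genes 0 exceeded the limit on any array. Of 9 dendritic cell genes 1 was tested, Zbtb46, which was not called (-0.085, adjusted p = 0.908, limma), and Itgax (CD11c) reached at most 2.59, 3.04 and 2.91 in Tlr4-mutant, antibiotic and WT tumours and 1.85 in normal liver. The summed B cell level was 5.16 to 5.44 in Tlr4-mutant tumours, 5.21 to 5.31 in antibiotic tumours, 5.09 to 5.33 in WT tumours and 5.07 to 5.26 in normal liver, in log2 units.

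Of 6 costimulation genes 1 was tested, Cd40, a receptor on antigen-presenting cells, which was at least 2.87-fold higher in Tlr4-mutant tumours (adjusted p = 0.0262, limma) and at least 2.49-fold higher in WT tumours (adjusted p = 0.0177, limma) than in normal liver, where it was dim. The second of these calls was lost without normal liver 1 (adjusted p = 0.0809, limma). Cd40 passed the filter through tumours alone.

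Liver identity was checked with hepatocyte genes, of which 6 had a probe set of their own and all 6 were above log2 4 in every group. Alb, albumin, had 14.56 ± 0.059 in WT tumours (SD, n = 7) and 14.58 ± 0.077 in normal liver (SD, n = 3). Ahsg, a secreted liver glycoprotein, was called higher in Tlr4-mutant (0.64), antibiotic (0.48) and WT tumours (0.58) than in normal liver (adjusted p = 0.000557, 0.0123 and 0.000441, limma), and Fgb, a fibrinogen chain, in Tlr4-mutant tumours (0.31, adjusted p = 0.0397, limma).

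Between the tumour groups 0 genes of any of these lists were called by limma in any of the 3 comparisons. For the class II pathway list, of 11 tested, 2 genes had an unadjusted p under 0.05 (limma) in Tlr4-mutant against WT tumours. In antibiotic against WT tumours 2 had one, and in Tlr4-mutant against antibiotic tumours 1. Over all tested genes the shares were 16.7%, 15.5% and 10.3% in the same order. The interferon gamma response list had 3 such genes of 13 in antibiotic against WT tumours and 0 in the other 2 comparisons. The pan-leukocyte list, with 0 such genes in each, had a median log2 difference of -0.37 in Tlr4-mutant against WT tumours and -0.052 in antibiotic against WT tumours. All 8 of its genes were lower in the first of these. Medians over all tested genes were 0.025 and 0.018 in the same order. Ptprc differed by -0.19 (95% confidence interval -1.34 to 0.96) and -0.25 (95% confidence interval -1.60 to 1.11) in these 2 comparisons.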

How the data were processed

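Total RNA (100 ng) was amplified with a 3′ kit and hybridised to Affymetrix arrays, per the labels' protocols. The deposited values are log2 signals that the authors made with GCRMA, as the submitters' processing notes state. The version and background settings are not given in the sources used here. Arrays have no read depth, so their number and signal over background limit precision. Between 14455 and 15305 of 45101 probe sets exceeded log2 4 on an array, the medians of kept probe sets lay between 6.69 and 6.85, and 0 pairs of arrays held identical values. The values were used as deposited.

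Symbols came from the platform annotation (34958 probe sets with 1 symbol, 932 with several, which were left out). Groups and array numbers came from the titles. Probe sets above log2 4 on at least 3 arrays were kept (16713), and each gene was represented by its probe set of highest mean over all arrays, which left 9053 genes. limma 3.58.1 in R 4.3.3 fitted 4 group means to all 18 arrays, with moderated variances, two-sided tests and Benjamini-Hochberg adjustment. Where every array of a group was below log2 4, a lower bound of the fold was computed with log2 4 in its place. Per-probe-set values came from the same fit on all kept probe sets. Correlations were tested by 100000 permutations, two-sided, adjusted over 18 relations. The procedure was tested on simulated data. Promoter windows are from RefSeq on GRCm38.p6, searched with python 3.11.15, and figures were drawn with matplotlib 3.10.9.

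The members and gene lists were chosen with earlier results of these data known. The 6 members were always named, with Ptprc, Adgre1, Itgax, Cd79a, Irf1, Rfx5, Ctss, Ifi30, H2-DMb1, H2-Ea, B2m and H2-K1; other genes under this rule are not reported here. Of each list up to 2 called genes of smallest p per direction were named, and the 8 genes of highest likeness. Zbtb46, Alb, Lgmn's values in single tumours, Ifng and the Ifngr1 values of WT tumours 17 and 19 were chosen with values in view. As alternatives, the filter was dropped or raised to log2 6, probe sets of a gene were averaged or each tested, those ending in _x_at or _s_at were removed, arrays were centred on the median or quantile normalized, variances were trended and robust, arrays were weighted, only the compared groups were fitted, and each array was left out once. A further alternative, chosen once values were known, dropped WT tumours 17 and 19 at the same time, and another took Lcp1 out of the leukocyte sum.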

Additional observations from a re-analysis of the deposited data

Results flagged for a closer look

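Tap2, the class I transporter subunit, stood out on 1 array. Its log2 signal was 5.23 in Tlr4-mutant tumour 25, against 6.11 to 6.46 in the other 4 Tlr4-mutant tumours, a gap wider than Dixon's 95% limit allows for a group of 5. Tumour 25 was also the lowest Tlr4-mutant tumour for H2-Aa, H2-Ab1, H2-Eb1 and Cd74. In all, 70 groups of values were examined in this way, and chance alone marks about 1 in 20 such groups.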

How the results depend on the processing

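Calls between tumour groups did not change under any alternative: 0 members were called in each of the 3 comparisons. Against normal liver the main shares of all genes called higher were 18.8% (WT), 11.7% (Tlr4-mutant) and 8.11% (antibiotic tumours). Shares under the alternatives are not given here. An alternative can change calls over all genes, so a changed count below is not a result about the members. For WT tumours against normal liver, the main count of 3 called members became 5 with no filter, 5 of 8 when probe sets were tested one by one, and 1 without probe sets ending in _x_at or _s_at, where H2-Aa had none left; leaving out 1 array gave 3 to 4, and array weights, quantile normalization or a fit of only the 2 groups gave 4. H2-Ab1 lost its call with the mean of its probe sets (1.53, adjusted p = 0.0528, limma). For Tlr4-mutant tumours against normal liver the main count of 1 became 0 with no filter and without _x_at and _s_at probe sets, 2 with centred arrays, quantile normalization, or trended and robust variances, 3 with the log2 6 filter, array weights, or a fit of only the 2 groups, and 5 with all probe sets; leaving out 1 array gave 0 to 3. For antibiotic tumours against normal liver the main count of 3 became 5 with all probe sets, 1 without _x_at and _s_at probe sets, and 1 with only the 2 groups; leaving out 1 array gave 1 to 4. The direction turned only in antibiotic against WT tumours, for H2-Ab1, H2-Eb1 and Cd74 in that order: -0.25, -0.57 and -0.42 with array weights; -0.081, -0.18 and -0.13 without antibiotic tumour 29; -0.10, -0.24 and -0.29 without antibiotic tumour 30 (against 1.25, 1.74 and 1.67 without antibiotic tumour 28, the highest values); and -0.14, -0.29 and -0.090 without WT tumours 17 and 19, an alternative chosen after seeing the data. The cause was not tested. Of the other values of single genes, 818 kept direction and side of the threshold, 20 gained and 32 lost a call. No paired analysis was possible because the groups share no replicate numbers in the labels. Signals near log2 4 limit what can be said of H2-DMa and Ciita.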
